A study of Homo sapiens with 6 samples.

Results

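The genes described here encode the eukaryotic translation initiation factors, eIF1 to eIF6. They are the 47 protein-coding genes of the count table, of 31369 genes in all, whose symbols begin with EIF1 to EIF6, without the kinases EIF2AK, the inhibitors EIF4EBP and the transporter EIF4ENIF. Of these, 45 had enough reads to be tested among 15878 genes. EIF1AY and EIF2S3B had at most 10 reads in each sample and were not tested. The genes were compared by the complex in which their products work.

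RNA was sequenced from HK-2 cells, an established line made from human kidney proximal tubule, in 3 control samples (NC) and 3 samples with PPM1K overexpression (OE). NC samples have the genotype entry WT and OE samples the entry PPM1K overexpress, and OE cells were transfected with a PPM1K plasmid by lipofection. The sources used here do not say whether NC cells received a plasmid or the lipid reagent. The part of transfection itself in the differences was not tested. All 6 samples share the time entry Day 10 and the treatment entry Chronic kidney disease, and the sources used here name no agent behind that entry. The sample titles instead name shControl and shPPM1K, and the cell line entries count up from HK-2 to HK-12 while the cell type entry is HK-2 throughout. PPM1K, a mitochondrial phosphatase that activates breakdown of branched-chain amino acids, checks these labels. It had 37, 19 and 53 reads in NC replicates 1, 2 and 3, and 3294, 3531 and 2919 reads in OE replicates 1, 2 and 3, so the direction is that of the genotype entry. OE exceeded NC by 6.39 on the log2 scale (standard error, SE, 0.13, edgeR adjusted p = 1.1e-18), and reads of the plasmid and of the cells' own gene are counted together. The labels do not say whether the replicates were separate cultures, so the p-values measure only the spread between these samples, which may be technical.

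Total counts were 34635770 to 36116963 in NC and 36033404 to 39850802 in OE. NC replicate 2 stood apart, with 26478 genes having at least 1 read against 22094 to 22913 in the other samples, and calls of members that are lost without it are given with both values. Of 8 proximal tubule markers none reached an FPKM of 1 in all samples, LRP2, CUBN, AQP1 and SLC22A6 were under 0.1 in every sample, and their summed FPKM was 0.48 to 0.73 in NC and 0.36 to 0.42 in OE. The renal lineage genes PAX8 and CDH16 and the epithelial genes KRT8, KRT18, KRT19 and EPCAM reached 1 in all samples. Summed FPKM was 744.6 to 836.6 in NC and 625.6 to 678.9 in OE for 5 epithelial markers, 2.93 to 3.08 and 1.1 to 1.15 for 4 fibroblast markers, 0.56 to 0.71 and 0.78 to 0.9 for 4 endothelial markers, and at most 0.1 for 4 leukocyte markers. The part of these marker differences in the results was not tested, and in bulk RNA fewer cells that use a gene and less RNA of it per cell cannot be told apart.

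Initiation begins when eIF2, carrying GTP and the initiator tRNA, joins the small ribosomal subunit together with eIF1, eIF1A, eIF3 and eIF5. The mRNA is brought by eIF4F, in which eIF4E holds the cap, eIF4G is the scaffold and eIF4A is an RNA helicase, and the loaded subunit scans to the start codon. eIF5 then triggers GTP hydrolysis, eIF5B joins the large subunit, and eIF2B recharges eIF2 with GTP, a step that stops when kinases phosphorylate the alpha subunit of eIF2.

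Among the initiation factor genes, more rose than fell in OE. At an adjusted p under 0.05, 22 of the 45 tested members (48.9%) were higher in OE, where 24.9% of all tested genes were. A further 8 members (17.8%) were lower, where 23.7% of all tested genes were, and 15 had no call. The lower members include EIF4A1, whose entry holds 0.694% to 1.44% of the reads of 3 overlapping entries. The sum of these entries was higher in OE. The higher members count the near-identical copies EIF3C and EIF3CL separately. The median log2 fold change was 0.15 over the members and -0.0032 over all tested genes. Without NC replicate 2, 19 members were higher and 6 lower. The calls lost were those of EIF4A1, given below, and of 4 other members, with these log2 fold changes. They were 0.16 for EIF2B1 (adjusted p = 0.068), 0.10 for EIF3G (adjusted p = 0.22), 0.14 for EIF3K (adjusted p = 0.12) and -0.16 for EIF3F (adjusted p = 0.062). Together the members held 1.02% to 1.03% of all counts in the NC samples and 1.17% to 1.22% in the OE samples, so these ranges did not overlap. This share is weighted to genes with many reads, above all EIF3A, with a mean CPM of 2523.1 in NC and 3563.1 in OE. The eIF3 genes alone held 0.436% to 0.447% of counts in NC and 0.53% to 0.571% in OE. The share without EIF3A was not computed.

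The changes were small. Only EIF4E3 passed the adjusted p with a fold change above 2 or below 0.5, as 5.51% of all tested genes did. Of the called members, 7 were higher and 1 lower by at least 0.5 on the log2 scale, 8 were higher and 2 lower by 0.25 to 0.5, and 7 were higher and 5 lower by less. The lower members at 0.25 or more were EIF4E3, EIF4A1 and EIF3L. EIF4E3 had 7 to 39 reads per sample, and exons of EIF4A1 and EIF3L are shared with other genes on the same strand. CPM, the counts scaled to library size, of NC and OE did not overlap for 32 of the 45 members, against 55.3% of all tested genes. The largest rises were in EIF1AX, EIF2B2, EIF3CL, EIF3C, EIF3J, EIF2S2 and EIF1, which belong to 4 groups: the scanning factors, eIF2, eIF2B and eIF3. Of these, EIF3CL and EIF3C are near-identical copies.

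**Figure D1:**
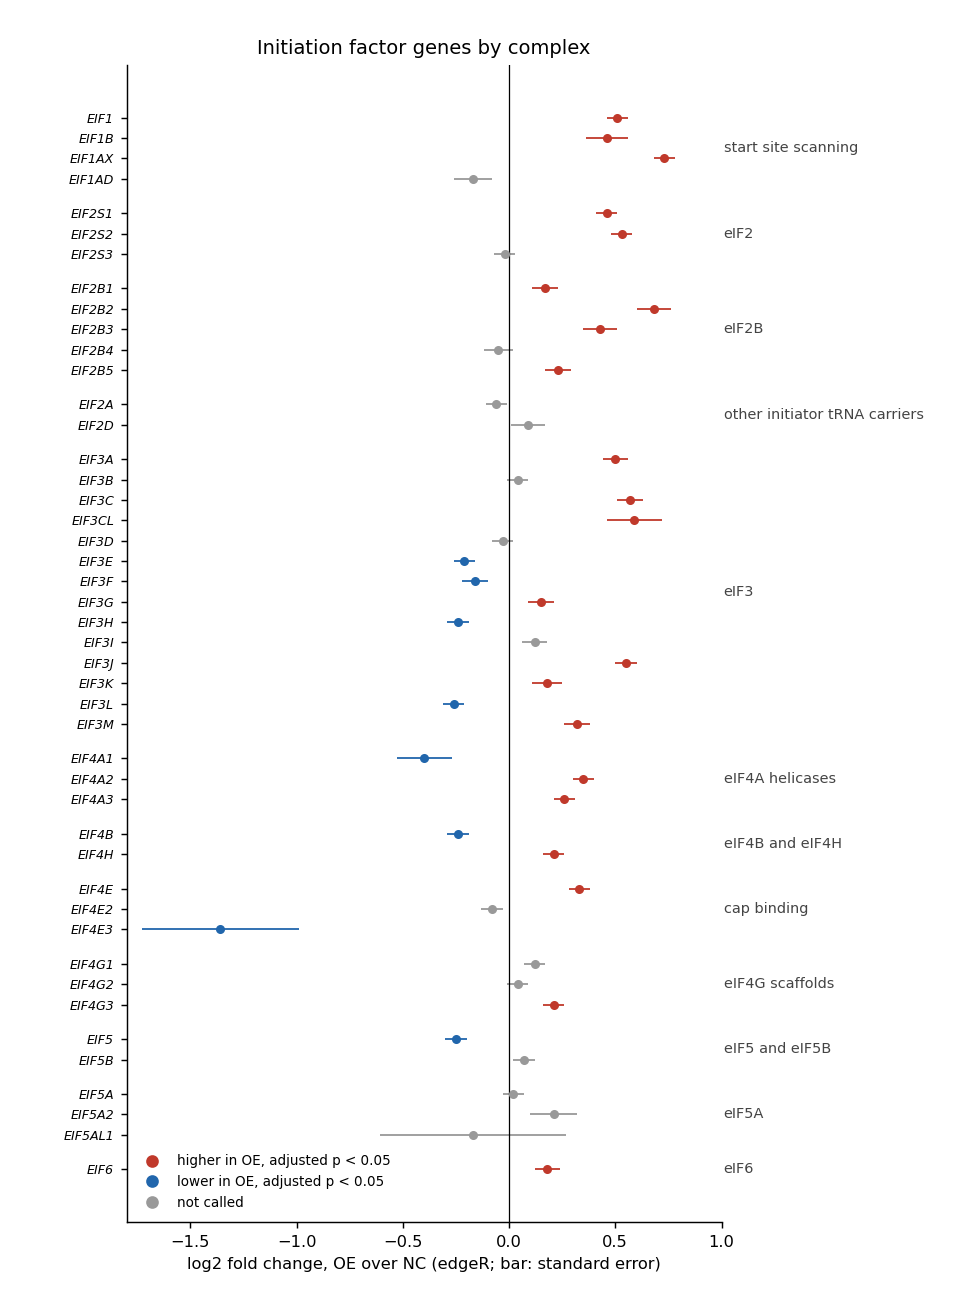
The log2 fold change of OE over NC from edgeR is plotted for each of the 45 tested initiation factor genes by complex, with a bar of 1 standard error, red for higher, blue for lower and grey for no call at an adjusted p of 0.05. Red points lead in the scanning factors, eIF2 and eIF2B, eIF3 holds 7 red and 4 blue points, and EIF4E3 lies farthest from 0, at -1.36.

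Among the factors of start codon scanning, 3 of 4 tested genes rose (75%), where 24.9% of all tested genes did. EIF1 encodes the factor that keeps the ribosome from settling at a wrong codon. Its CPM was 141.3, 139.1 and 140.6 in NC and 198.8, 210.8 and 188.1 in OE. Every OE sample lay above every NC sample, and the log2 fold change was 0.51 (SE 0.05, adjusted p = 6.6e-08). EIF1AX encodes eIF1A, which works beside eIF1 on the small subunit. Its CPM was 87.6, 92.2 and 90.9 in NC and 147.7, 145.3 and 156.1 in OE. The groups were apart, and its log2 fold change of 0.73 (SE 0.05, adjusted p = 2e-10) was the largest rise of any member. EIF1B, a close relative of EIF1, had a CPM of 9.05, 9.46 and 10.5 in NC and 14.5, 12.1 and 13.3 in OE. It too did not overlap between groups, with a log2 change of 0.46 (SE 0.1, adjusted p = 0.0004). EIF1AD, whose product carries an eIF1A-like domain, had a log2 fold change of -0.17 and no call (adjusted p = 0.15).

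Of the 3 tested genes for subunits of eIF2, 2 rose (66.7%), where 24.9% of all tested genes did. EIF2S1 encodes the alpha subunit, which carries the phosphorylation site of the eIF2 kinases. Its CPM was 116.8, 119.5 and 125.0 in NC and 164.1, 173.8 and 158.9 in OE, a log2 change of 0.46 (SE 0.05, adjusted p = 2.6e-07). EIF2S2, for the beta subunit, had a CPM of 596.6, 607.8 and 635.8 in NC and 886.3, 891.2 and 884.3 in OE, and rose by 0.53 on the log2 scale (SE 0.05, adjusted p = 1.8e-08). NC and OE were apart for both genes. EIF2S3, for the gamma subunit that holds GTP and the initiator tRNA, had a CPM of 224.7, 230.0 and 229.1 in NC and 224.1, 221.0 and 228.6 in OE. These values overlapped, and its log2 fold change of -0.02 (SE 0.05) was not called (adjusted p = 0.73). The canonical transcript is the transcript that GENCODE 44 marks as representative of a gene. Per kilobase of it, the level in NC was lowest for EIF2S1, 29.0 ± 1.0 CPM (SD, n = 3), and highest for EIF2S2, 240.0 ± 7.89, with EIF2S3 at 65.9 ± 0.808. This order held in OE, at 39.9 ± 1.82, 347.1 ± 1.39 and 65.0 ± 1.1 in turn. EIF2A and EIF2D, whose products can deliver tRNA without eIF2, had log2 fold changes of -0.06 (adjusted p = 0.33) and 0.09 (adjusted p = 0.36).

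Of the 5 subunits of eIF2B, the exchange factor that recharges eIF2, 4 rose (80%), where 24.9% of all tested genes did. EIF2B2, for the beta subunit, changed most. Its CPM was 17.2, 19.2 and 18.9 in NC and 30.8, 29.8 and 27.8 in OE, without overlap, and its log2 fold change was 0.68 (SE 0.08, adjusted p = 2.4e-07). Genes on the other strand share 29.3% of the canonical exon bases of EIF2B2 and 22.4% of those of EIF2B1. The use of strand in counting is not given, so both counts are uncertain. EIF2B3, for the gamma subunit, had a CPM of 19.2, 17.8 and 18.9 in NC and 25.5, 26.0 and 23.5 in OE, also apart, with a log2 change of 0.43 (SE 0.08, adjusted p = 8e-05). EIF2B5, the catalytic epsilon subunit, rose by 0.23 (adjusted p = 0.0019) and EIF2B1 by 0.17 (adjusted p = 0.028). The call of EIF2B1 was lost without NC replicate 1 or 2 or OE replicate 1 or 2, at log2 fold changes of 0.14 to 0.18 and adjusted p of 0.053 to 0.11, and in a fit blocked by replicate number, at an adjusted p of 0.072. EIF2B4, for the delta subunit, had a log2 fold change of -0.05 and no call (adjusted p = 0.6). EIF2B2 was the subunit of lowest level in both groups, at 4.28 ± 0.251 CPM per kilobase (SD, n = 3) in NC and 6.85 ± 0.348 in OE, while EIF2B5 was the highest, at 24.7 ± 0.308 and 28.9 ± 1.71. The highest level was 5.77 times the lowest in NC and 4.22 times the lowest in OE. The ranking depends on the length used, which is 4304 bases for EIF2B2 and 1900 for EIF2B3. Before division by length, mean CPM was 18.4 and 18.6 in NC and 29.5 and 25.0 in OE in turn. By the deposited FPKM, EIF2B2 was again lowest but EIF2B1 highest, at 3.08 times the lowest in NC and 2.16 times in OE. In NC the levels of EIF2B5 and EIF2B4, 23.5 ± 0.362, lay close together.

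**Figure D2:**
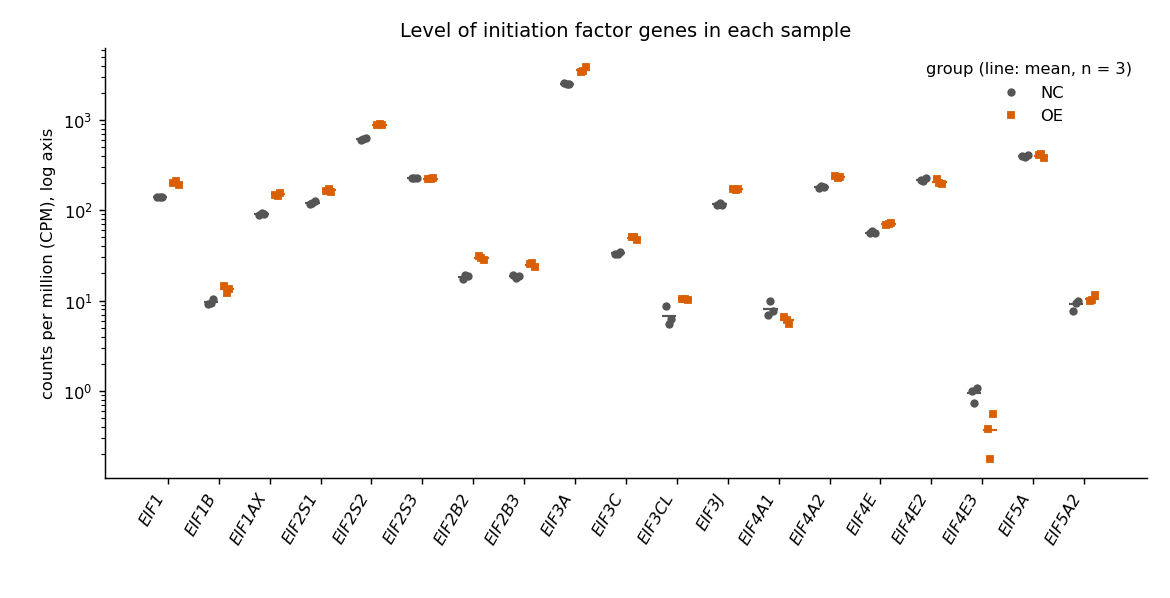
CPM on a log axis is plotted for each of the 6 samples, with a line at the group mean, for the 14 called members with the largest fold change and for the remaining members EIF2S3, EIF4E, EIF4E2, EIF5A and EIF5A2 set beside them. The OE squares sit above the NC circles for EIF1, EIF1AX, EIF2S1, EIF2S2, EIF2B2, EIF3A, EIF3C and EIF3J, sit among them for EIF2S3 and EIF5A, and sit below them for EIF4A1 and EIF4E3.

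eIF3, the largest initiation factor, binds the small subunit and keeps it open for mRNA. Of its 14 genes, 7 rose (50%), 4 fell (28.6%) and 3 had no call, with the copies EIF3C and EIF3CL counted separately. Of all tested genes, 24.9% rose and 23.7% fell. EIF3A, for the large subunit around which the complex is built, had the highest count of any member. Its CPM was 2578.3, 2512.9 and 2478.0 in NC and 3433.7, 3441.9 and 3813.7 in OE. The groups were apart, with a log2 change of 0.50 (SE 0.06, adjusted p = 3.1e-07). EIF3J, for a loosely attached subunit, had a CPM of 114.9, 120.6 and 113.0 in NC and 173.8, 166.9 and 170.9 in OE. All OE samples were higher, and its log2 fold change was 0.55 (SE 0.05, adjusted p = 8.9e-09).

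EIF3C and EIF3CL, for another core subunit, are near-identical copies on chromosome 16, at chr16:28688558-28735727 on the plus strand and chr16:28379579-28403841 on the minus strand (GENCODE 44 on GRCh38). Of the 100-base windows of the EIF3C canonical transcript, 97.0% occur unchanged in EIF3CL. Only uniquely mapped reads were counted, so reads that match both copies equally are in neither count. The split of reads between the copies is uncertain. EIF3C had a CPM of 32.9, 32.7 and 34.1 in NC and 50.5, 50.1 and 47.3 in OE, and EIF3CL a CPM of 8.71, 5.45 and 6.26 in NC and 10.4, 10.3 and 10.2 in OE. Both were higher in every OE sample, by 0.57 (SE 0.06, adjusted p = 1.2e-07) and 0.59 (SE 0.13, adjusted p = 0.00067) on the log2 scale. Their sum was 40.0 ± 1.73 CPM (SD, n = 3) in NC and 59.6 ± 1.86 in OE, a log2 ratio of 0.57. It holds only the reads that could be placed in 1 copy, not all reads of both.

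The other rises in eIF3 were smaller. EIF3M had a log2 change of 0.32 (adjusted p = 0.0002). EIF3K and EIF3G rose by 0.18 (adjusted p = 0.028) and 0.15 (adjusted p = 0.045), but NC and OE overlapped for both. The calls of EIF3K and EIF3G were lost without NC replicate 1 or 2 or OE replicate 1 or 2, at log2 fold changes of 0.12 to 0.19 (adjusted p of 0.054 to 0.17) for EIF3K and 0.10 to 0.17 (adjusted p of 0.067 to 0.22) for EIF3G. With the replicate block they were lost too, at adjusted p of 0.053 and 0.093.

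The 4 eIF3 genes that fell were EIF3L, EIF3H, EIF3E and EIF3F. Their products belong to the core of subunits with PCI and MPN domains, as do those of EIF3A, EIF3C, EIF3K and EIF3M, which rose. The log2 fold changes were -0.26 for EIF3L (adjusted p = 0.00027), -0.24 for EIF3H (adjusted p = 0.00062), -0.21 for EIF3E (adjusted p = 0.0023) and -0.16 for EIF3F (adjusted p = 0.037). For each, every OE sample lay below every NC sample. The CPM of EIF3L fell from 95.6 to 99.8 in NC to 78.8 to 86.1 in OE, and that of EIF3H from 210.1 to 228.2 to 175.3 to 190.7. The call of EIF3F was lost without any NC replicate or OE replicate 3, at log2 fold changes of -0.16 to -0.09 (adjusted p of 0.062 to 0.16), with the replicate block (adjusted p = 0.061), by DESeq2 (adjusted p = 0.063) and in both limma fits (adjusted p = 0.15). Of the EIF3L canonical exon bases, 58.5% are shared with an unnamed gene on the same strand (ENSG00000279738), so its count is uncertain. EIF3B, EIF3D and EIF3I had log2 fold changes of 0.04, -0.03 and 0.12 and no call (adjusted p of 0.53, 0.62 and 0.09), and EIF3I was called only without OE replicate 3, at 0.19 (adjusted p = 0.0046).

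Levels within eIF3 were spread widely. Per kilobase of canonical transcript they ran in NC from 2.34 ± 0.582 CPM (SD, n = 3) for EIF3CL to 378.9 ± 7.65 for EIF3A. The median over the 14 genes was 56.9 in NC. In OE they ran from 3.53 ± 0.0415 to 535.1 ± 32.6 for the same genes, with a median of 59.7. The levels of EIF3CL and EIF3C leave out reads that match both copies, so the low end is uncertain. Apart from these copies, the lowest was EIF3M in NC, at 8.3 ± 0.457, and EIF3F in OE, at 9.7 ± 0.871. After EIF3A came EIF3G, EIF3D, EIF3B and EIF3K, at 290.8 ± 20.4, 149.0 ± 7.12, 117.8 ± 0.318 and 106.5 ± 5.59 in NC. This ranking too depends on the length used, which is 5047 bases for EIF3M and 6920 for EIF3F, but 1103 for EIF3G and 772 for EIF3K. Before division by length, mean CPM in NC was 364.6 for EIF3B, 320.8 for EIF3G, 219.1 for EIF3H and 82.2 for EIF3K. Apart from the copies, EIF3M was then lowest in both groups, at 41.9 in NC and 52.2 in OE. The deposited FPKM, fragments per kilobase scaled to the mapped fragments, divides by a length close to the union of all annotated exons, which spans 37761 bases for EIF3E against 2022 in its canonical transcript, and puts EIF3E at 2.88 ± 0.0265 in NC where the canonical length gives 58.4 ± 1.08. Levels between genes are therefore given per canonical transcript.

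**Figure D3:**
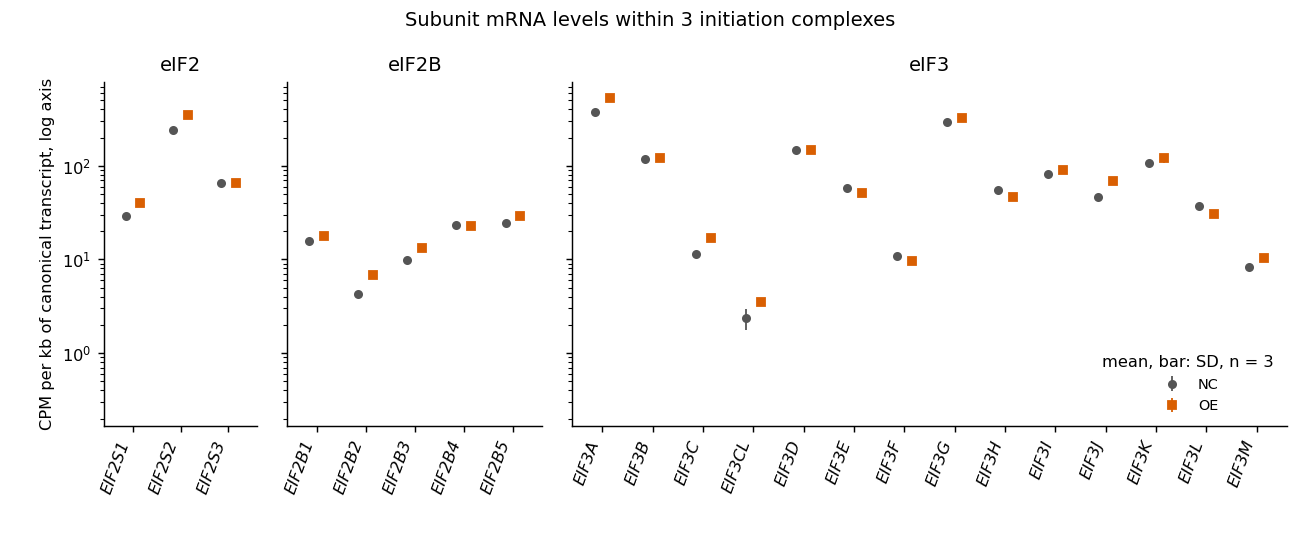
The mean CPM per kilobase of canonical transcript, with a bar of 1 SD over 3 samples, is plotted on a log axis for the subunits of eIF2, eIF2B and eIF3 in NC (circles) and OE (squares). EIF2S2 stands above the other eIF2 subunits at 240.0 in NC, EIF2B2 is the lowest of eIF2B at 4.28, and eIF3 spans EIF3CL at 2.34 to EIF3A at 378.9. The levels of EIF3C and EIF3CL leave out reads that match both copies.

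The eIF4A helicases unwind structure at the 5′ end of mRNA, and EIF4A3 belongs to the exon junction complex. EIF4A2 had a CPM of 178.4, 183.7 and 182.2 in NC and 237.8, 224.9 and 230.8 in OE. It was higher in all OE samples, by 0.35 on the log2 scale (SE 0.05, adjusted p = 4e-06). EIF4A3 rose by 0.26 (adjusted p = 0.00022). EIF4A1, the main helicase of eIF4F in most cells, had only 6.84, 9.83 and 7.62 CPM in NC and 6.66, 6.12 and 5.56 in OE. The groups did not overlap by a narrow margin, and its log2 fold change was -0.40 (SE 0.13, adjusted p = 0.014). Without NC replicate 2, its highest sample, it was -0.24 and not called (adjusted p = 0.14), and limma on log2(FPKM + 1) and log2(FPKM + 0.1) did not call it either, at -0.21 and -0.35 (adjusted p of 0.056 and 0.055).

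Few reads are listed under EIF4A1, and its exons belong to other listed genes too. EIF4A1 lies at chr17:7572824-7579006 on the plus strand (GENCODE 44 on GRCh38), and 100% of its canonical exon bases are shared on the same strand with the readthrough gene SENP3-EIF4A1 and the noncoding gene RP11-186B7.4 (ENSG00000264772). SENP3-EIF4A1 had a CPM of 441.5, 442.4 and 445.6 in NC and 563.3, 601.5 and 562.7 in OE, without overlap, and a log2 change of 0.38 (SE 0.05, adjusted p = 2.1e-06). RP11-186B7.4 had a CPM of 242.8, 229.8 and 246.3 in NC and 267.2, 254.9 and 233.4 in OE, with a log2 change of 0.07 (adjusted p = 0.29). The reads listed under EIF4A1 were 0.694% to 1.44% of those under the 3 entries. The sum of all 3 was 690.9 ± 8.76 CPM (SD, n = 3) in NC and 833.8 ± 30.6 in OE, higher in OE by 0.27 on the log2 scale, the opposite direction to EIF4A1 alone. SENP3, whose exons also form part of the readthrough gene, had a log2 change of 0.37 (adjusted p = 7.8e-06), and how much of the readthrough entry's difference comes from its SENP3 exons was not tested.

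The helicase cofactors moved apart. EIF4B fell by 0.24 on the log2 scale (adjusted p = 0.00027), from a CPM of 651.7 to 667.9 in NC to 548.8 to 565.5 in OE. EIF4H, related to EIF4B in its RNA-binding domain, rose by 0.21 (adjusted p = 0.0011), from 527.0 to 534.6 to 606.7 to 620.0. Neither gene overlapped between groups.

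Among the cap-binding proteins, EIF4E rose, EIF4E2 was not called and EIF4E3 fell. EIF4E, the cap-binding subunit of eIF4F, had a CPM of 55.5, 58.2 and 55.3 in NC and 69.0, 71.0 and 73.1 in OE. All OE samples were higher, with a log2 change of 0.33 (SE 0.05, adjusted p = 2.6e-05). EIF4E2 encodes 4EHP, which binds the cap without recruiting eIF4G and represses translation. Its CPM was 214.6, 212.1 and 227.1 in NC and 220.6, 199.9 and 197.0 in OE, an overlap, with a log2 change of -0.08 (adjusted p = 0.21). EIF4E3 was barely present, with 35, 26 and 39 reads in NC and 14, 7 and 20 in OE. Its log2 fold change was -1.36 (SE 0.37, adjusted p = 0.0043), and with these few reads it ranged from -1.77 without OE replicate 3 to -1.01 without OE replicate 2. Limma on log2(FPKM + 1) did not call EIF4E3, whose mean FPKM of 0.08 in NC lies far below the added 1. Over all alternatives its smallest change was -0.06.

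Of the 3 eIF4G scaffold genes, 1 rose (33.3%), where 24.9% of all tested genes did. EIF4G1, the main scaffold, had a CPM of 761.1, 725.5 and 717.3 in NC and 784.5, 810.4 and 801.4 in OE. Although these did not overlap, its log2 fold change of 0.12 had an adjusted p that rounds to 0.05 from above and was not called. It was called without NC replicate 1, at 0.15 (adjusted p = 0.041), by DESeq2, at 0.13 (adjusted p = 0.012), and by limma on log2(FPKM + 1) and log2(FPKM + 0.1), at 0.14 with both (adjusted p of 0.037 and 0.038). EIF4G3 had a CPM of 112.6, 119.5 and 113.0 in NC and 125.8, 129.8 and 142.5 in OE, and rose by 0.21 (adjusted p = 0.0035). EIF4G2, also named DAP5, lacks the part that binds eIF4E. Its CPM was 303.0, 312.7 and 301.7 in NC and 301.7, 314.1 and 329.9 in OE, with a log2 change of 0.04 (adjusted p = 0.5).

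For factors of the later steps, EIF5, which triggers GTP hydrolysis on eIF2, fell by 0.25 on the log2 scale (adjusted p = 0.00045), from a CPM of 122.0 to 133.5 in NC to 103.8 to 108.6 in OE. EIF5B, which joins the subunits, had a log2 fold change of 0.07 and no call (adjusted p = 0.31). EIF6, which keeps the large subunit from joining too early, rose by 0.18 (adjusted p = 0.016). The call of EIF6 was lost without NC replicate 1, at 0.16 (adjusted p = 0.064), or OE replicate 2, at 0.12 (adjusted p = 0.11), or under upper quartile scaling, at 0.14 (adjusted p = 0.055). Of EIF6, 26.6% of the canonical exon bases are shared with ENSG00000261582 on the same strand.

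EIF5A encodes a hypusine-bearing protein now known mainly for elongation and termination. It had a CPM of 398.3, 384.2 and 408.5 in NC and 410.2, 415.9 and 382.6 in OE, so the groups overlapped, and the log2 fold change was 0.02 (adjusted p = 0.76). EIF5A2, a relative expressed in few tissues, had 7.7, 9.49 and 9.98 CPM in NC and 9.99, 10.1 and 11.4 in OE. Its log2 fold change was 0.21 (adjusted p = 0.1). EIF5AL1, at 8 to 18 reads per sample, had a log2 change of -0.17 (SE 0.44) that its reads could not resolve.

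Ratios between relatives within a sample do not depend on how libraries are scaled. The log2 count ratios of 7 pairs were compared between NC and OE by an exact two-sided permutation test, in which 3 samples against 3 cannot go below p = 0.1. The ratio of EIF4E2 to EIF4E was 1.95, 1.86 and 2.04 in NC and 1.68, 1.49 and 1.43 in OE, a difference of -0.42 (exact p = 0.1, adjusted over the 7 pairs 0.233). The ratio of EIF4E3 to EIF4E differed by -1.82 (exact p = 0.1, adjusted 0.233), with every OE sample below every NC sample, as for EIF4E2. The ratio of EIF4A2 to EIF4A1 was higher in OE by 0.74 (exact p = 0.1, adjusted 0.233) and by 0.60 without NC replicate 2, but by -0.02 (exact p = 0.9) with the readthrough reads added to EIF4A1 and by 0.08 (exact p = 0.2) with those of both overlapping entries. EIF4G3 to EIF4G1 differed by 0.08, EIF4G2 to EIF4G1 by -0.08, EIF5A2 to EIF5A by 0.20 and EIF1B to EIF1 by -0.04, each with overlapping groups and adjusted exact permutation p of 0.35 to 0.8. No pair passed the threshold, which this design could not reach.

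**Figure D4:**
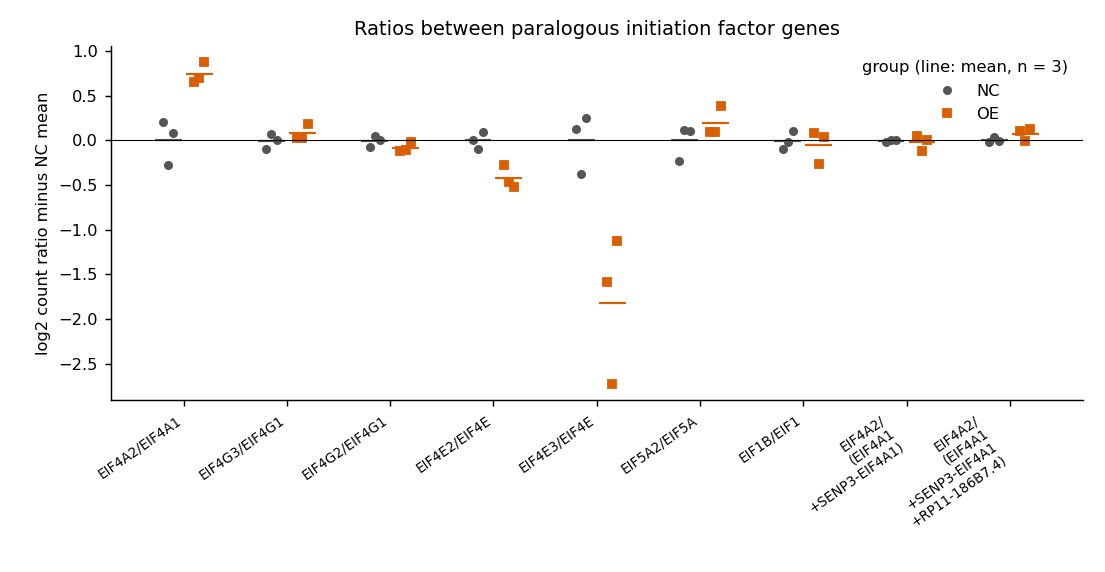
The log2 count ratio of each pair of related genes, minus its NC mean, is plotted for each of the 6 samples, with a line at the group mean. The OE squares lie above NC for EIF4A2 to EIF4A1 and below it for EIF4E2 and EIF4E3 to EIF4E, while in the 2 columns at the right, where reads of the overlapping entries are added to EIF4A1, the helicase ratio differs by -0.02 and 0.08.

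Promoters of 40 of the 47 members, 56 in all, were found in the RefSeq table on GRCh38.p14, which gives 250 bases before and 50 after each annotated start. The E-box CACGTG, which reads the same on both strands and is bound by MYC, USF and related factors, was present in promoters of 10 of the 40 members (25.0%) and 12.8% of 10483 tested protein-coding genes. Counted by promoter, it was in 17.9% of the 56 member promoters and 7.26% of all 35116 promoters. It was found in 6 of 18 members higher in OE, 2 of 5 lower and 2 of 15 without a call. The sequences below, in which capitals mark the E-box, are those of the cap-binding, helicase, scanning and eIF2B genes that rose and of the helicase cofactors that moved apart.
EIF4E, chr4:98929342-98929369, minus strand: tacccatcggcCACGTGaccagtccttt
EIF4E, chr4:98929189-98929216, minus strand: gacatatccgtCACGTGgccagaagctg
EIF4A3, chr17:80147233-80147260, minus strand: cagttccctttCACGTGacgaagagtgc
EIF1B, chr3:40309642-40309669, plus strand: cgcgggacggtCACGTGggaggggccgc
EIF2B3, chr1:44986758-44986785, minus strand: acagagggacaCACGTGtcgaatgctcc
EIF4H, chr7:74174146-74174173, plus strand: cgccgccgcacCACGTGggctgcagagc
EIF4B, chr12:53006423-53006450, plus strand: cccgctataatCACGTGattgcctcatc
EIF4E carries the E-box at both places before the same start, with its first base 225 and 72 bases before it. EIF4H, which rose, and EIF4B, which fell, each carry it, so these letters occur on both sides of the comparison. The EIF4B site lies inside the gene's longest GENCODE 44 span, since annotated starts of that gene differ.

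The core of the C/EBP-ATF element, TGATGCA, searched on both strands and without overlap with CACGTG, was present in promoters of 1 of 40 members and of 2.11% of the tested protein-coding genes. That member was EIF3B, on chromosome 7, which had no call. A run of at least 5 C or T from the annotated start, the letters of a 5′ terminal oligopyrimidine (TOP) motif as ribosomal protein mRNAs carry it, was chosen after the values had been seen. It was present in 10 of 40 members (25.0%) and 7.67% of tested protein-coding genes: EIF3K, EIF3M and EIF4A2, which rose, EIF3F and EIF4B, which fell, EIF2A, EIF2D, EIF2S3 and EIF3D, without a call, and EIF2S3B, which was not tested. These are matches of letters in fixed windows, and binding was not measured.

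Genes that act on the initiation factors were read beside them. Of 25 regulators of initiation, 8 were higher (32%) and 9 lower (36%) in OE, with a median log2 fold change of 0.02. Of all tested genes, 24.9% were higher and 23.7% lower. PPP1R15A (GADD34), which guides a phosphatase to eIF2 alpha, rose by 1.02 (adjusted p = 6.6e-12), EIF4EBP1, which holds eIF4E away from eIF4G, by 0.83 (adjusted p = 5.1e-10), MKNK2, a kinase of eIF4E, by 0.65 (adjusted p = 4.3e-09) and LARP1, which binds TOP mRNAs, by 0.57 (adjusted p = 7.9e-08). For all 4, every OE sample lay above every NC sample, where 55.3% of all tested genes did not overlap between groups. These 4 had the smallest adjusted p of the list, and more regulators fell than rose. The lower regulator with the smallest adjusted p was EIF2AK1, an eIF2 kinase, at -0.48 (adjusted p = 9.5e-08).

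Of 10 auxiliary initiation proteins 6 rose (60%) and none fell, with a median log2 fold change of 0.20. Among all tested genes these shares were 24.9% and 23.7%. ABCE1, which splits ribosomes for reuse, rose by 0.63 (adjusted p = 3.1e-08), DENR, of a recycling and reinitiation pair, by 0.43 (adjusted p = 3.3e-07), NCBP2, of the nuclear cap-binding complex, by 0.24 (adjusted p = 0.00043) and the scaffold CTIF by 0.36 (adjusted p = 0.00054). Of 11 elongation and termination genes 3 rose (27.3%, near the share of all tested genes) and 1 fell (9.09%), with a median of 0.11. The rises were in termination factors, GSPT1 with 0.54 (adjusted p = 8.7e-09), ETF1 with 0.44 (adjusted p = 3.3e-07) and GSPT2 with 0.38 (adjusted p = 0.00024), and the fall in the elongation factor gene EEF1G, -0.15 (adjusted p = 0.031), whose groups overlapped and whose canonical exon bases are shared to 99.5% with ENSG00000255508 on the same strand.

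Hypusine on eIF5A is made from spermidine. Of 6 genes of hypusine and polyamine synthesis, 3 rose (50%) and 2 fell (33.3%), with a median log2 fold change of 0.32. Among all tested genes 24.9% rose and 23.7% fell. ODC1, the rate-limiting step of polyamine synthesis, rose by 0.99 (adjusted p = 3.2e-12), AMD1 by 0.52 (adjusted p = 9.9e-08) and DOHH, the last step of hypusine formation, by 0.56 (adjusted p = 8.2e-05). SMS, spermine synthase, fell by 0.19 (adjusted p = 0.004). DHPS, the step before DOHH, had a log2 change of -1.23 (adjusted p = 2.1e-06), but 86.0% of its canonical exon bases are shared on the same strand with another listed gene (CTD-2192J16.27), and the sum of the pair was 38.6 ± 1.36 CPM (SD, n = 3) in NC and 32.7 ± 1.28 in OE, a log2 ratio of -0.24. Of the 3 mitochondrial initiation genes, MTIF2 rose by 0.65 (adjusted p = 8.4e-10), MTIF3 fell by 0.52 (adjusted p = 2.3e-05) and MTFMT was not called. These shares, 33.3% higher and 33.3% lower, stand beside 24.9% and 23.7% of all tested genes. Of 84 tested cytosolic ribosomal protein genes, 23 rose (27.4%) and 9 fell (10.7%), with a median of 0.08. The share that rose was near the 24.9% of all tested genes.

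**Figure D5:**
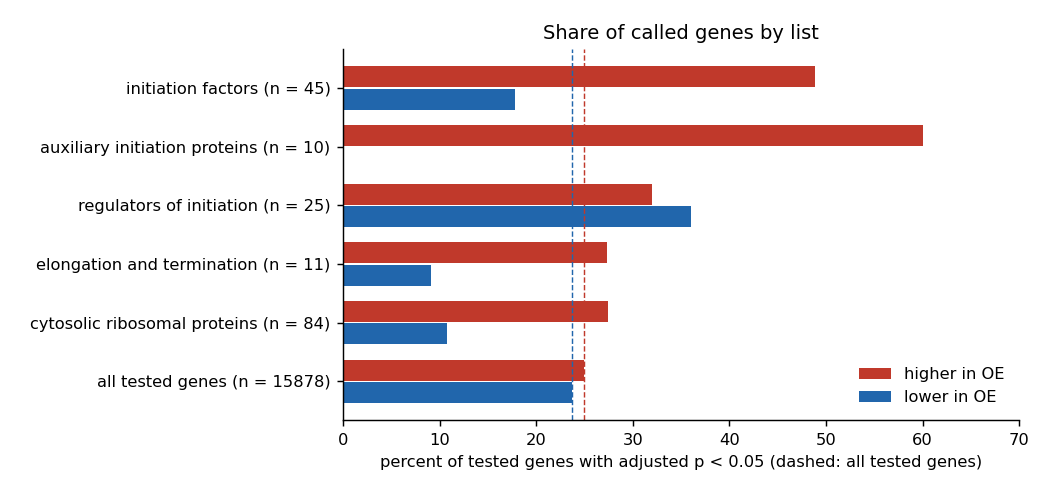
The percent of tested genes with an adjusted p under 0.05 is plotted for the initiation factors, for lists of related genes and for all 15878 tested genes, with bars from 0 in red for higher and blue for lower in OE and dashed lines at the values of all tested genes. The initiation factors reach 48.9% higher and 17.8% lower, where all tested genes have 24.9% and 23.7%.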

How the data were processed

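Stranded mRNA libraries of 6 HK-2 samples were sequenced by the authors, who trimmed reads, aligned them to GRCh38 with HISAT2 and deposited read counts of uniquely mapped reads per gene and FPKM values. The labels also name the build mm10. Counting program, annotation and use of strand are not given in the sources used here. Columns of no sample numbered 0.

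Groups came from the genotype labels. All genes of the deposited count table entered edgeR 4.0.16 (R 4.3.3), with filterByExpr, TMM and the quasi-likelihood test, with Benjamini-Hochberg adjustment over 15878 genes. CPM was computed from the counts with the library sizes adjusted by TMM. The deposited FPKM served for markers and for limma 3.58.1 on log2(FPKM + 1) and log2(FPKM + 0.1). DESeq2 1.42.0 was another alternative. The length behind FPKM was 1.07 times the exon union in GENCODE 44 (within 5% for 92.5% of 4740 genes), which held 99.8% of gene identifiers. Python 3.11.15 drew the plots. At this depth counting error is largest for EIF5AL1 and EIF4E3 and also bears on EIF4A1, EIF3CL, EIF5A2 and EIF1B. Replicates differed by more than sampling noise (chi-square per gene 5.12 to 11.7, where noise gives 1).

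Members and lists were chosen with earlier results of these data known. Values per sample are given for the 14 called members with the largest fold change, EIF2S1 and paralog pairs, and for EIF2S3 and the entries overlapping EIF4A1, chosen after their values were seen. Of other lists the 4 genes with the smallest adjusted p, or all called genes where 5 or fewer, are named. EIF2AK1 was added to the regulators after its values were seen. A marker gene is not reported here.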

Additional observations from a re-analysis of the deposited data

How the results depend on the processing

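Members higher in OE numbered 22, and 18 to 23 under the alternatives for test, scaling, filter and measure and with each sample left out. Members lower in OE numbered 8, and 7 or 8 under those alternatives with edgeR or DESeq2 on all samples, 6 to 8 with each sample left out, 4 with limma on log2(FPKM + 1) and 5 with limma on log2(FPKM + 0.1), for which the cause was not tested. The count past the fold threshold was 1, and 0 in both limma fits and with at least 10 counts in every sample, a filter that drops EIF4E3. The median log2 fold change of 0.15 was 0.11 under upper quartile scaling and 0.11 to 0.20 with each sample left out. Under upper quartile scaling 18 members were higher and 8 lower, and EIF2B1, EIF3G, EIF3K and EIF6 lost their calls. EIF2B1 also lost its call without a filter, EIF3G with RLE size factors and with at least 10 counts in every sample, and EIF3G and EIF3K in both limma fits. DESeq2 and edgeR without a filter tested more low genes, and there the median of all genes was -0.13.

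With the replicate number as a block, 19 members were higher, 7 lower and 1 past the fold, with a median of 0.15. Differences in ratios between paralogs cannot move in this balanced block. The numbers share no stated batch, and deviations of same-numbered samples from group means correlated at -0.00319, -0.0663 and -0.0542, so the numbers do not pair the samples. The block kept 26 of the 30 calls and lost EIF2B1, EIF3F, EIF3G and EIF3K.

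Direction turned for members without a call. With each sample left out, EIF2B4 ranged from -0.11 to 0.01 (0.01 without OE replicate 3), EIF3D from -0.06 to 0.01 (0.01 without NC replicate 1), EIF5AL1 from -0.37 to 0.27 (0.27 without NC replicate 3) and EIF5A from -0.0001 to 0.05 (-0.0001 without NC replicate 2), and under upper quartile scaling EIF5A was -0.02. With each sample left out, the EIF1B to EIF1 ratio ranged from -0.10 to 0.06, and was 0.02 without NC replicate 3 and 0.06 without OE replicate 2. With SENP3-EIF4A1 reads added, an alternative chosen after seeing the data, the EIF4A2 to EIF4A1 ratio difference was -0.02. The cause of these turns was not tested, except that the added reads outnumber those of EIF4A1. EIF3E lost its call only in both limma fits, at -0.14 and -0.18 (adjusted p of 0.083 and 0.078). At 8 to 18 reads per sample for EIF5AL1, depth limits what can be seen.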

Other observations

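The count table also lists 48 pseudogenes of initiation factors, and 8 of them had enough reads to be tested. EIF2S2P4, a processed copy of EIF2S2, had 161, 134 and 145 reads in NC and 254, 238 and 265 in OE. These did not overlap, and the log2 fold change was 0.69 (standard error 0.13, adjusted p = 0.00012 from edgeR), beside 0.53 for EIF2S2 itself. The other 7 had no call, at log2 fold changes of -0.77 for EIF4BP3 to 0.49 for EIF4A1P10, with EIF1AXP1 at 0.47 and EIF4HP1 at 0.24. Their sequences resemble those of their parent genes, and how many of these reads came from the parents was not tested.

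The eIF2 kinases, whose target is the product of EIF2S1, did not share a direction. They and the EIF4EBP2 and EIF4EBP3 genes are named here after their values were seen. EIF2AK3 (PERK) fell by 0.54 on the log2 scale (adjusted p = 1.1e-05) and EIF2AK1 (HRI) by 0.48 (adjusted p = 9.5e-08), while EIF2AK2 (PKR) rose by 0.30 (adjusted p = 0.00035) and EIF2AK4 (GCN2) had a log2 fold change of 0.18 and no call (adjusted p = 0.055). EIF4EBP2, a relative of EIF4EBP1, fell by 0.26 (adjusted p = 0.0047), and EIF4EBP3 had 16 to 24 reads per sample and a log2 fold change of 0.10 (adjusted p = 0.82). Of the EIF4EBP3 canonical exon bases, 73.2% are shared on the same strand with the readthrough gene ANKHD1-EIF4EBP3, so its count is uncertain.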
